A study of Mus musculus with 3 samples.

Results

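*Cish*, *Socs1*, *Socs2*, *Socs3* and *Pim1* were followed across the NK cells and T cells of a mouse tumor. These 5 genes of the 32285 in the count table were chosen by name, as the cytokine-inducible feedback genes of the JAK-STAT pathway named for this study, and not by their values. All 5 were measured in every library and passed the filter on low counts in every comparison between cell classes and between NK cell states.

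Cytokines such as IL-2, IL-15, IL-6 and the interferons bind receptors that carry JAK kinases, and the kinases activate STAT transcription factors. Among the first genes that STAT factors induce are the SOCS family, whose products switch the same pathway off again. CIS, the product of *Cish*, restrains IL-15 and IL-2 signaling in NK cells and T cell receptor signaling in CD8 T cells. SOCS1 inhibits the JAK kinases downstream of interferon and common gamma chain receptors, SOCS2 is best known for restraining growth hormone signaling, and SOCS3 binds the gp130 receptor chain and restrains IL-6 signaling. *Pim1* encodes a serine/threonine kinase that is induced by the same STAT factors but promotes survival and growth instead of braking the receptor.

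The cells were tumor-infiltrating lymphocytes (TILs) from subcutaneous MC38-Ova tumors, a mouse colon adenocarcinoma line that carries ovalbumin, in wild-type C57BL/6 mice transgenic for Kaede, a fluorescent protein that violet light converts from green to red for good. Each mouse received 250000 tumor cells, the tumor was photoconverted on day 13 and cells were taken on day 15, so Kaede-red (KR) cells had been in the tumor for at least 48 h and Kaede-green (KG) cells had entered it after the conversion. All tumors were treated with an isotype control antibody. There were 2 KG libraries, labelled as biological replicates (KG 1 and KG 2), and 1 KR library of droplet-based 3′ scRNA-seq. Live CD45+ TER119- Kaede+ cells were sorted without the CD11b+ NK1.1- myeloid cells, and the number of mice behind a library is not given in the sources used here.

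The files held 34781 cell barcodes with 87193225, 129438292 and 175848894 unique molecular identifiers (UMIs, 1 per captured transcript) in KG 1, KG 2 and KR, and medians of 6438, 8007 and 11079 UMIs per barcode. A total of 31943 barcodes fell within the study's limits on detected genes and mitochondrial share. Between 20 and 36 barcode sequences were shared by each pair of libraries. The cell classes were defined by UMIs of a few genes: 8459 NK cells (*Ncr1*, at most 1 UMI of *Cd3e*), 9422 CD8 T cells (at least 2 UMIs of *Cd3e*, with *Cd8a* and *Cd8b1*), 1073 CD4 T cells (*Cd3e* and *Cd4*, without *Foxp3*) and 1802 Treg cells (*Cd3e* and *Foxp3*), while 745 cells that met more than 1 definition were left out. Levels are given in CPM, the UMIs of a gene per 1000000 UMIs summed over the cells of a class in a library. The 8 NK markers summed to 9509 to 17149 CPM in the NK class and to at most 2562 CPM in the others. The 6 Treg markers, which include the gate gene *Foxp3*, summed to 5408 to 6222 CPM in Treg cells. They summed to 1440 to 2722 CPM in CD4 T, 617 to 858 CPM in CD8 T and 208 to 252 CPM in NK cells. Median depth in KG 1, KG 2 and KR was 5889.5, 7008 and 5974 UMIs per CD4 T cell and 9577.5, 10098 and 7139 per Treg cell. Whether Treg cells without a *Foxp3* UMI lay in the CD4 T class was not tested. The 6 T cell markers summed to 3973 to 5883 CPM in the 3 T cell classes and to 654 to 717 CPM in NK cells, the NK class being allowed 1 UMI of *Cd3e*. The 8 myeloid markers summed to at most 227 CPM and the 5 B cell markers to at most 173 CPM in any class.

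In the mouse genome (GRCm38, with GENCODE gene models), *Cish* (ENSMUSG00000032578) lies on the plus strand at chr9:107296026-107302784, *Socs1* (ENSMUSG00000038037) on the minus strand at chr16:10782240-10785536, and *Socs2* (ENSMUSG00000020027) on the minus strand at chr10:95385362-95417180. *Socs3* (ENSMUSG00000053113) lies on the minus strand at chr11:117966079-117970047 and *Pim1* (ENSMUSG00000024014) on the plus strand at chr17:29490753-29496112. The antisense genes Gm17041 and Gm26885 share exon bases with *Cish* and *Pim1* on the other strand, as does the pseudogene Gm17040 with *Cish*. The RefSeq promoter table (GRCm38.p6, 250 bases before to 50 after each start site) held 5 start sites for 4 of the 5 genes, *Cish*, *Socs1*, *Socs3* and *Pim1*. The promoters are shown because these genes are textbook STAT targets, and 3 of the 4 hold letters that factors of the pathway are known to prefer. Both strands were searched for TTCNNNGAA, the core of the site that STAT dimers bind, and for GAAANNGAA, the core of the interferon-stimulated response element. They occur in 8.3% and 8.56% of the 32851 promoters in the table. The stretches that hold a match are given 5′ to 3′ on the strand of the gene, with the matches in capitals:

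Cish, chr9:107296649-107296678, plus strand: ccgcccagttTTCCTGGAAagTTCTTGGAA
Socs1, chr16:10785537-10785786, minus strand: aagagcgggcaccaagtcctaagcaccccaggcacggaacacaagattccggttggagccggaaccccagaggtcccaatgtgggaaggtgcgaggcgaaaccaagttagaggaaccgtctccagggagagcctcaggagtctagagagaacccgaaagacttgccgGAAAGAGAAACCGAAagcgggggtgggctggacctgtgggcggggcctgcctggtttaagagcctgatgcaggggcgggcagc
Socs3, chr11:117969452-117969616, minus strand: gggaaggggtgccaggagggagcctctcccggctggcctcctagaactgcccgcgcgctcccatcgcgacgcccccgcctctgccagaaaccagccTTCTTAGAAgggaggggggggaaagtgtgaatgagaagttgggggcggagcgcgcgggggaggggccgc

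*Cish* held TTCNNNGAA 2 times, at bases 1 to 9 and 12 to 20 counted from the RefSeq start, so both matches lie after that start. All 300 bases of the *Cish* window lie in annotated exons, counted over all genes on both strands, against 50 to 98 bases of the other windows. The window begins at base 107296409, inside the GENCODE gene, which begins at 107296026. *Socs1* held GAAANNGAA 2 times, at -83 to -75 and -77 to -69, and these matches overlap by 3 bases. *Socs3* held TTCNNNGAA once, at -154 to -146. Neither run of letters was found in the windows at the *Pim1* start sites. A match is a description of the sequence and no measurement of a factor bound to it.

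The first comparison asked whether the feedback genes are set differently in NK cells and in the T cell classes of the same tumors. No difference between the 4 classes was called for *Cish* or *Socs1*, whereas *Socs2* and *Pim1* were higher in CD4 T and Treg cells than in NK and CD8 T cells, and *Socs3* was higher in NK and CD4 T cells than in CD8 T and Treg cells. UMIs were summed per class and library and tested with edgeR's quasi-likelihood test with the library as a block, and p-values were adjusted over the 12487 genes tested (Benjamini-Hochberg, called below 0.05). *Socs2* separated the classes most, and *Cish* least.

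*Cish* was at 157, 138 and 108 CPM in the NK cells of KG 1, KG 2 and KR, and at 129, 133 and 138 CPM in CD8 T cells. In CD4 T cells it stood at 180.3, 138 and 189 CPM, and in Treg cells at 171, 126 and 166 CPM. By mean over the 3 libraries the order was CD4 T 169 ± 27.6, Treg 154 ± 24.4, NK 134 ± 24.7 and CD8 T 134 ± 4.83 CPM (SD, n = 3), and the ranges of all 4 classes overlapped. None of the 6 differences between classes was called by edgeR, with unadjusted p from 0.144 to 0.953, nor by DESeq2 (adjusted p = 0.247 to 0.911). The 95% intervals of the 2 largest log2 differences ran from -0.41 to 0.078 for NK against CD4 T cells and from -0.047 to 0.44 for CD4 T against CD8 T cells, which bounds what these libraries could resolve.

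*Socs1* was at 195, 123 and 114 CPM in NK cells and at 176, 112 and 139 CPM in CD8 T cells. Its levels were 238, 107 and 218 CPM in CD4 T cells and 181, 92.2 and 232 CPM in Treg cells. KG 2 was the lowest library in every T cell class, and the range over the libraries of any class was wider than the distance between any 2 class means (188 ± 70.7 in CD4 T, 168 ± 70.7 in Treg, 144 ± 44.4 in NK and 142 ± 32.2 CPM in CD8 T cells; SD, n = 3). No class difference of *Socs1* was called by edgeR, with unadjusted p from 0.299 to 0.931, nor by DESeq2 (adjusted p = 0.455 to 0.996).

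*Socs2* was low in NK cells, at 12.6, 11.9 and 8.0 CPM, and in CD8 T cells, at 16.1, 14.7 and 24.5 CPM. CD4 T cells held 33.6, 38.2 and 89.1 CPM and Treg cells 55.1, 56.5 and 124 CPM. Each CD4 T and Treg library lay above every NK and CD8 T library. Relative to NK cells, *Socs2* was 4.00-fold higher in CD4 T cells (log2 difference NK minus CD4 T -2.00 ± 0.30, SE, adjusted p = 0.000601) and 5.90-fold higher in Treg cells (-2.56 ± 0.29, adjusted p = 4.27e-05). It was also 2.51-fold higher in CD4 T than in CD8 T cells (1.33 ± 0.29, adjusted p = 0.0126) and 3.70-fold higher in Treg than in CD8 T cells (1.89 ± 0.27, adjusted p = 0.000498). NK and CD8 T cells (-0.67 ± 0.28, adjusted p = 0.103) and Treg and CD4 T cells (0.56 ± 0.29, adjusted p = 0.204), the neighbors in this order, did not pass.

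*Socs3* was at 184, 151 and 62.0 CPM in NK cells and at 235, 153 and 79.4 CPM in CD4 T cells. CD8 T cells held 114, 72.2 and 35.9 CPM and Treg cells 73.4, 50.3 and 52.0 CPM. The KR library was the lowest in NK, CD8 T and CD4 T cells but not in Treg cells. Within libraries, *Socs3* was 1.84-fold higher in NK than in CD8 T cells (log2 0.88 ± 0.19, SE, adjusted p = 0.00626) and 2.33-fold higher in NK than in Treg cells (1.22 ± 0.20, adjusted p = 0.000670). It was 1.97-fold higher in CD4 T than in CD8 T cells (0.98 ± 0.20, adjusted p = 0.00961) and 2.49-fold lower in Treg than in CD4 T cells (-1.31 ± 0.21, adjusted p = 0.00225). NK and CD4 T cells (-0.093 ± 0.20, adjusted p = 0.768) and Treg and CD8 T cells (-0.34 ± 0.20, adjusted p = 0.252) did not pass, and in KR the CD8 T level lay below the Treg level.

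*Pim1* was at 769.6, 529 and 212 CPM in NK cells and at 505, 368 and 210.3 CPM in CD8 T cells. CD4 T cells held 984, 754 and 1007 CPM and Treg cells 1097, 769 and 1016 CPM. The NK and CD8 T levels spread widely over the 3 libraries, and only KG 1 brought NK cells up to the lowest CD4 T and Treg library. *Pim1* was 2.47-fold higher in CD4 T than in CD8 T cells (log2 1.30 ± 0.29, SE, adjusted p = 0.0144) and 2.53-fold higher in Treg than in CD8 T cells (1.34 ± 0.29, adjusted p = 0.00640). It was 1.80-fold lower in NK than in CD4 T cells (-0.85 ± 0.29, adjusted p = 0.0480) and 1.84-fold lower in NK than in Treg cells (-0.88 ± 0.29, adjusted p = 0.0328). The first of these was called in only 4 of 13 alternatives (adjusted p = 0.00157 to 0.189), and was lost without KG 1, KG 2, the library block, high doublet (Scrublet) scores, cells with myeloid or B cell UMIs, or cycling cells, with thinned cells, with a stricter NK gate and with cells of 2 gates kept in both. The remaining pairs, NK with CD8 T cells (0.46 ± 0.29, adjusted p = 0.293) and Treg with CD4 T cells (0.035 ± 0.29, adjusted p = 0.960), did not pass.

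**Figure D1:**
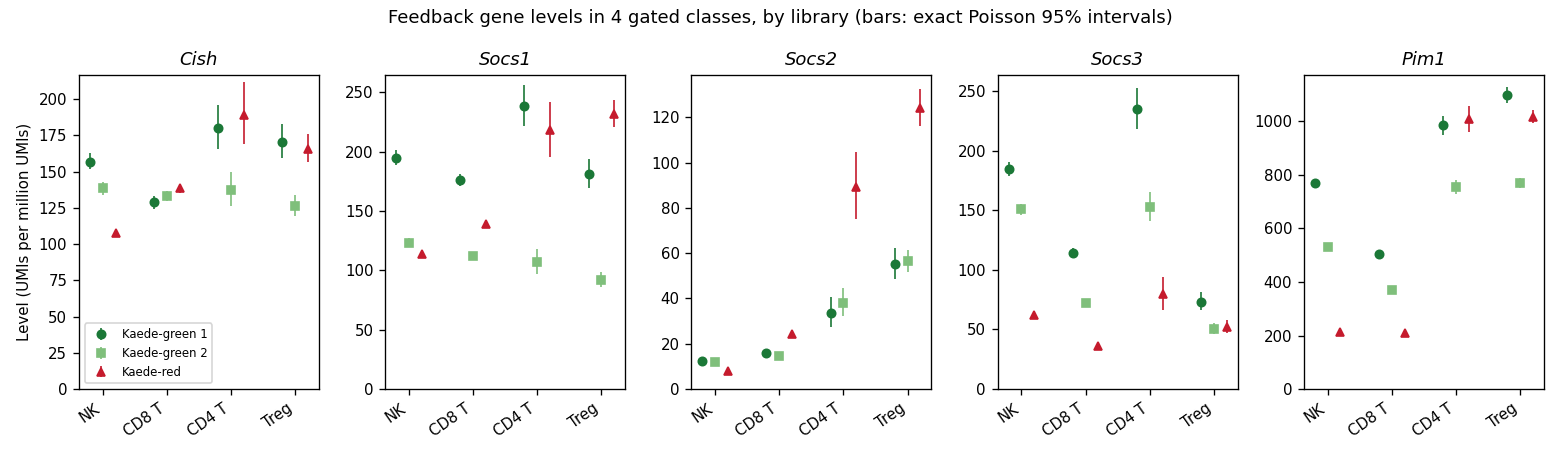
Levels of the 5 genes (CPM, 1 panel per gene) in NK, CD8 T, CD4 T and Treg cells, with 1 point per library (KG 1 circles, KG 2 squares, KR triangles) and exact Poisson 95% intervals that cover counting error only. *Cish* and *Socs1* overlap in all classes, *Socs2* rises from 8.0 to 12.6 CPM in NK cells to 55.1 to 124 CPM in Treg cells, and KR is the lowest NK library for every gene.

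Of the 5 genes, 1 was called between NK and CD8 T cells, where 25.7% of all tested genes were called, 2 between NK and CD4 T cells (32.2% of all genes) and 3 between NK and Treg cells (40.8%). There were 3 called between CD4 T and CD8 T cells (18.4%), 2 between Treg and CD8 T cells (26.7%) and 1 between Treg and CD4 T cells (17.2%). Classes of the same libraries enter several of these contrasts, so the 6 counts are not independent of each other. Several of these calls were lost when KG 1 or KG 2 was left out, which also lowered the counts over all genes. Between CD4 T and CD8 T cells 2294 of 12487 genes were called with all libraries, 503 of 13016 without KG 1 and 370 of 12413 without KG 2. Between Treg and CD4 T cells these counts were 2151, 317 and 309. Without KG 2 the *Socs3* difference between NK and CD8 T cells was not called. That setting left 0 of 5 genes called (1 with an unadjusted p below 0.05), beside 1500 of all 12413 genes. Neither the 3 calls between CD4 T and CD8 T cells nor the *Socs3* call between Treg and CD4 T cells was kept without KG 1 or without KG 2, nor were the *Pim1* calls of NK against CD4 T and Treg cells. Without KR, *Pim1* (log2 0.55) and *Socs2* (-0.34) were called between NK and CD8 T cells, *Socs1* was called lower in Treg than in NK (0.38 for NK minus Treg) and CD4 T cells (-0.35), and the *Pim1* differences of NK cells from CD4 T and Treg cells shrank to log2 -0.35 and -0.41.

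The receptors and kinases above the feedback genes also differed between the classes. Of 18 cytokine receptor genes, 4 were higher and 7 lower in NK than in CD8 T cells, 1 higher and 8 lower than in CD4 T cells, and 2 higher and 10 lower than in Treg cells. Large differences were found in *Il7r*, the IL-7 receptor chain (14.3-, 15.4- and 11.8-fold lower in NK than in CD8 T, CD4 T and Treg cells), and in the IL-6 receptor chains *Il6ra* (4.62-, 18.1- and 8.90-fold lower) and *Il6st*, which encodes gp130 (3.14-, 6.32- and 9.84-fold lower). *Il2ra*, the high-affinity IL-2 receptor chain, was 17.4-fold lower in NK than in Treg cells. Among the kinases, *Jak2* was 2.28-fold lower in NK than in CD4 T cells and 2.04-fold lower than in Treg cells, and *Jak1* was 1.35-, 1.27- and 1.63-fold higher in NK than in CD8 T, CD4 T and Treg cells. The other PIM kinase genes went the other way from *Pim1*: *Pim2* was 2.72-fold higher in NK than in CD4 T cells and 5.76-fold higher than in Treg cells, and *Pim3* was 1.36- and 1.42-fold higher. Of the other SOCS genes, *Socs6* was higher in NK cells in all 3 contrasts (1.83-, 1.71- and 1.79-fold against CD8 T, CD4 T and Treg cells), *Socs5* against CD8 T cells (1.68-fold) and *Socs7* against Treg cells (1.59-fold), and *Socs4* was called in none of them. Between CD4 T and CD8 T cells, all 9 interferon-induced genes tested were higher in CD4 T cells (median log2 difference 0.92, against -0.014 over all genes). Immediate early and dissociation genes moved in these contrasts too. Immediate early genes respond within minutes to stimulation and also to tissue dissociation, and the list of 17 also holds heat shock genes such as *Hspa1a* and *Hspa1b*. Of the 17, 10 were higher and 1 lower in CD4 T than in CD8 T cells, and 3 higher and 7 lower in Treg than in CD8 T cells. In Treg against CD4 T cells 0 were higher and 8 lower, with *Hspa1a* and *Hspa1b* among the 8. In NK cells 4 were higher and 1 lower than in CD8 T cells, 1 higher and 7 lower than in CD4 T cells, and 6 higher and 0 lower than in Treg cells. More of them moved with *Socs3* than against it in the 4 contrasts where *Socs3* was called, and their part in those calls was not tested.

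The second comparison followed the integrins with which the study orders NK cells in the tumor, CD11b (*Itgam*) and CD49a (*Itga1*). All 5 genes were lower in NK cells with *Itga1* UMIs and none of *Itgam* (Itga1 NK, 2333 cells) than in NK cells with the reverse (Itgam NK, 808 cells). The fall was largest for *Pim1* and *Socs3* and smallest for *Cish* and *Socs1*. Among all 9499 genes tested, 35.8% were called in either direction and 17.3% were lower in Itga1 NK cells.

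*Pim1* stood at 1061, 826 and 591 CPM in the Itgam NK cells of KG 1, KG 2 and KR and at 419, 328 and 159 CPM in the Itga1 NK cells, with no overlap between the groups. This was a 2.70-fold difference (log2 -1.43 ± 0.11, SE, adjusted p = 1.88e-06). *Pim1* is on the study's own list of genes that separate these NK states, drawn from these same libraries, so its direction here is not independent evidence. *Socs3* stood at 226, 191 and 134 CPM in Itgam NK cells and at 107, 88.2 and 44.3 CPM in Itga1 NK cells, again without overlap, and was 2.22-fold lower in the latter (-1.15 ± 0.11, adjusted p = 1.43e-05). Both differences were called in all 14 alternatives tried, at log2 -1.53 to -0.93 for *Pim1* and -1.24 to -0.88 for *Socs3*.

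*Cish* was at 185, 161 and 128 CPM in Itgam NK cells and at 125, 120.2 and 99.3 CPM in Itga1 NK cells. The groups did not overlap, and *Cish* was 1.30-fold lower in Itga1 NK cells (log2 -0.38 ± 0.093, SE, adjusted p = 0.00642). *Socs1* was at 181, 133 and 154 CPM against 138, 102 and 96.9 CPM, a pair of ranges that overlapped although Itga1 NK cells were lower within each library (-0.39 ± 0.098, adjusted p = 0.00788). *Socs2*, with 87 and 382 UMIs in the whole groups, was at 12.2, 20.6 and 9.23 CPM against 8.88, 9.09 and 7.14 CPM (-0.72 ± 0.24, adjusted p = 0.0365). These 3 smaller differences depended on the setting. When every cell was thinned to 2000 UMIs, with the integrin gate still on all UMIs, the log2 differences of *Cish* and *Socs1* shrank to -0.16 and -0.18 (adjusted p = 0.534 and 0.470). When cells with *Mki67* or *Top2a* UMIs were left out they were -0.23 and -0.25 (adjusted p = 0.140 and 0.123). Without KG 2 only *Pim1* and *Socs3* were called, and without KG 1 *Socs1* was called beside them. Over all genes 1795 of 9550 were called without KG 2 and 2392 of 10164 without KG 1.

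**Figure D2:**
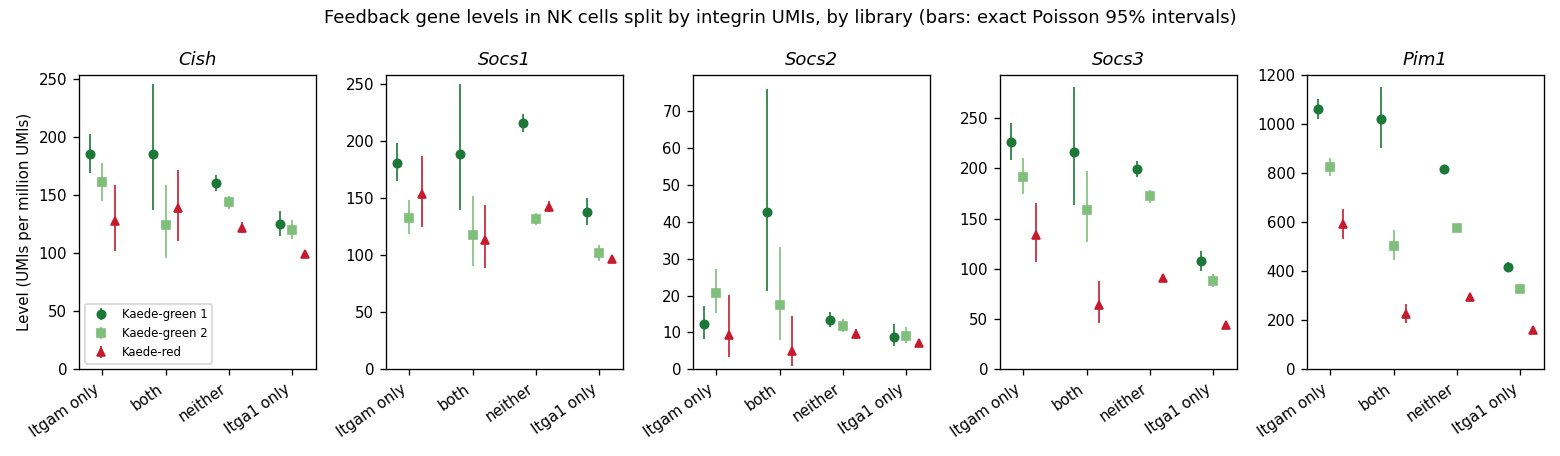
Levels of the 5 genes (CPM, 1 panel per gene) in NK cells with *Itgam*, neither or *Itga1* UMIs, with 1 point per library and exact Poisson 95% intervals; the 120 NK cells with both integrins are plotted beside them. Within every library *Pim1* and *Socs3* are highest in NK cells with *Itgam* alone (591 to 1061 and 134 to 226 CPM) and lowest in those with *Itga1* alone (159 to 419 and 44.3 to 107 CPM).

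The 5198 NK cells with UMIs of neither integrin lay between these groups for *Pim1*, at 815, 575 and 293 CPM in KG 1, KG 2 and KR, and for *Socs3*, at 199, 172 and 90.5 CPM. For *Socs1* they were at 216, 132 and 143 CPM, above Itgam NK cells in KG 1 only. The Itga1 and Itgam groups also differed in other ways that moved with these results. Median UMIs per cell were 9493, 12075 and 24478 in Itga1 NK cells and 5345, 6717 and 6701 in Itgam NK cells. The 8 cell cycle genes were all higher in Itga1 NK cells, with 237 to 663 CPM in sum against 49.2 to 86.9 CPM, and *Birc5* and *Cenpf*, both needed for mitosis, were 11.8- and 11.2-fold higher. Of the 17 immediate early and dissociation genes, 15 were lower in Itga1 NK cells (3267 to 4570 CPM in sum against 6791 to 7748 CPM). Their part in the fall of *Pim1* and *Socs3* was not tested. The 8 myeloid markers summed to 52.9 to 231 CPM in Itga1 NK cells and to 150 to 535 CPM in Itgam NK cells, and the 5 B cell markers to 138 to 191 and 66.5 to 81.5 CPM. With cells thinned to 2000 UMIs *Pim1* and *Socs3* differed by log2 -0.93 and -0.91, without cycling cells by -1.15 and -0.88, and without cells that held myeloid or B cell UMIs by -1.46 and -1.17. The thinned setting kept the integrin gate on all UMIs, so it did not remove the dependence of the gate on depth.

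The kinases above the feedback genes were lower in Itga1 NK cells as well. Of the 4 JAK genes, *Jak1* (1.66-fold), *Jak2* (1.58-fold) and *Tyk2* (1.73-fold) were lower and *Jak3* was not called (log2 0.15 ± 0.15). Both other PIM kinases were lower, *Pim2* 1.66-fold and *Pim3* 1.31-fold. Of 17 cytokine receptor genes tested, 8 were lower and 2 higher, of 7 STAT genes 3 were lower, and of 4 other SOCS genes 1 was lower, *Socs4* (1.33-fold). Among 7 other STAT5-induced genes 4 were lower and 1 was higher, *Lta*, which encodes lymphotoxin alpha (5.18-fold). The medians of these lists were between log2 -0.70 (JAK genes) and -0.34 (cytokine receptors), against -0.018 over all genes tested.

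The third comparison set NK cells that carried an interferon response, marked by UMIs of *Ifit3*, against those that did not. *Socs1* rose most of the 5 genes in the 1772 Ifit3-positive NK cells, *Socs3* and *Cish* rose slightly, and *Socs2* and *Pim1* did not pass the test. The count of 3 of 5 genes called, all higher, stands beside 7.71% of all 11421 genes tested that were called and 5.83% that were called higher. *Socs1* was at 298, 177 and 161 CPM in Ifit3-positive and at 166, 105 and 104 CPM in Ifit3-negative NK cells of KG 1, KG 2 and KR. It was higher in each library, 1.70-fold over the 3 (log2 0.76 ± 0.059, SE, adjusted p = 8.27e-06), although the lowest Ifit3-positive library lay below the highest Ifit3-negative one. *Socs3* went from 173, 141 and 60.4 CPM to 225, 179 and 69.2 CPM (1.26-fold, 0.33 ± 0.059, adjusted p = 0.00449), and *Cish* from 150.1, 133 and 106 CPM to 182, 153 and 119 CPM (1.18-fold, 0.24 ± 0.052, adjusted p = 0.0168). *Socs2* (0.34 ± 0.14, adjusted p = 0.207) and *Pim1* (0.12 ± 0.054, adjusted p = 0.242) were not called. The *Cish* call was lost without KG 2 (adjusted p = 0.127), and *Pim1* was called without KR (0.20, adjusted p = 0.0158).

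The interferon genes themselves were higher in Ifit3-positive cells in 9 of 9 tested, a direction fixed by the gate on a gene of the same program, with *Ifit1* 13.0-fold and *Rsad2* 5.94-fold higher. *Usp18*, which like *Socs1* ends interferon signaling, was 4.29-fold higher and was the only one of 10 other brakes on the pathway to be called. Whether the gate fixes the direction of *Usp18* and *Socs1* as well was not tested. *Jak2* was 1.25-fold higher, *Pim3* was 1.18-fold lower, and none of the other SOCS genes *Socs4* to *Socs7* was called by edgeR, where 1 of them, *Socs5*, had an unadjusted p below 0.05 (log2 -0.45 ± 0.15), or by DESeq2. Depth did not separate the groups, with medians of 6299, 8310 and 17226 UMIs per Ifit3-positive cell and 6087.5, 8148 and 17246.5 UMIs per Ifit3-negative cell. Of the 17 immediate early and dissociation genes 5 were higher in Ifit3-positive cells. Myeloid markers were higher there (95.8 to 442 against 56.5 to 153 CPM in sum). Without cells that held myeloid or B cell UMIs the *Socs1* difference was log2 0.78, as large as with them.

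**Figure D3:**
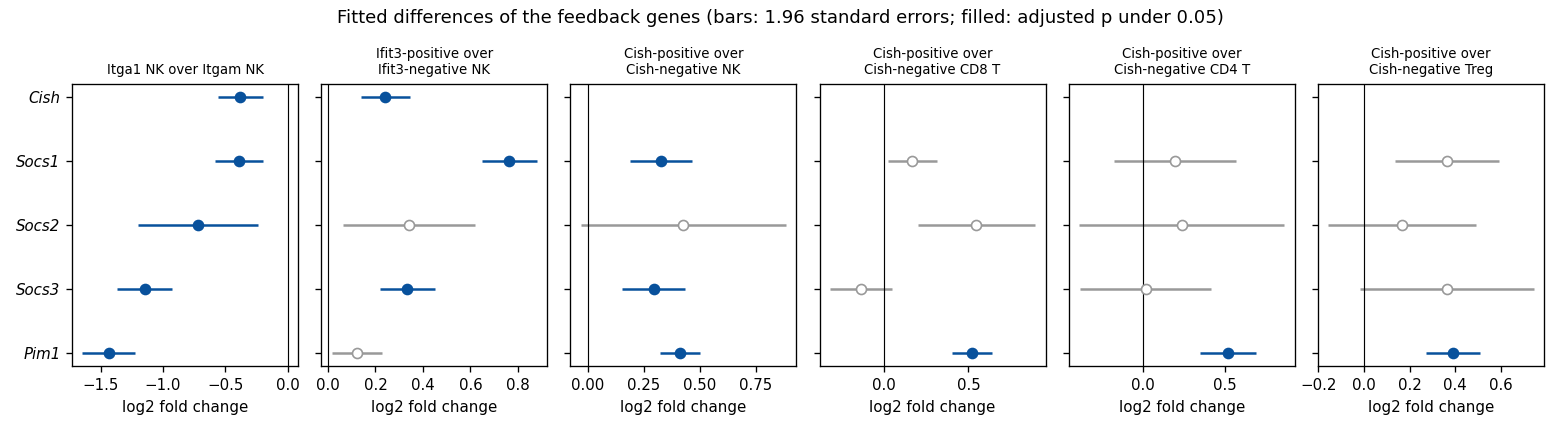
Log2 differences of the 5 genes between NK cell states and between Cish-positive and Cish-negative cells (x axes, separate scales), with 95% intervals; filled points passed an adjusted p of 0.05 in edgeR. All 5 genes lie below 0 for Itga1 against Itgam NK cells, *Socs1* stands apart at 0.76 for Ifit3-positive NK cells, and *Pim1* lies at 0.39 to 0.52 for Cish-positive cells of all 4 classes.

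The fourth comparison asked whether the other 4 genes are higher in cells with a *Cish* UMI among 2000 drawn UMIs. All cells were first thinned to 2000 UMIs, because a deeper cell is more likely to hold a UMI of any gene. Both the gate and the levels were read from the thinned counts. Before thinning, 58.7, 63.5 and 73.4% of NK cells in KG 1, KG 2 and KR held a *Cish* UMI. After it 27.8, 25.0 and 21.5% did, so many Cish-negative cells held *Cish* in the full counts. *Pim1* was higher in Cish-positive cells of all 4 classes and was the only gene to be called in each. *Socs1* and *Socs3* were called in NK cells alone, but their log2 differences were at least as large in the smaller Treg class. There edgeR gave 0.36 ± 0.12 (SE, adjusted p = 0.186) for *Socs1* and 0.36 ± 0.19 (adjusted p = 0.554) for *Socs3*. In CD8 T and CD4 T cells *Socs1* was at 0.17 and 0.20 and *Socs3* at -0.13 and 0.019. Whether the classes differ in these effects was not tested.

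In NK cells, 726, 670 and 682 cells of KG 1, KG 2 and KR were Cish-positive and 1882, 2005 and 2493 were not. *Pim1* stood at 1147, 837 and 402 CPM in Cish-positive and at 853, 618 and 305 CPM in Cish-negative NK cells, higher in each library and 1.33-fold over the 3 (log2 0.41 ± 0.045, SE, adjusted p = 2.57e-17). *Socs1* was at 243, 166 and 189 against 224, 126 and 128 CPM (0.33 ± 0.071, adjusted p = 0.000412), and *Socs3* at 257, 217 and 103 against 199, 179.6 and 87.8 CPM (0.30 ± 0.072, adjusted p = 0.00275). *Socs2*, with 25, 20 and 18 thinned UMIs in the Cish-positive NK cells, did not pass (0.43 ± 0.23, adjusted p = 0.449). The 3 of 4 genes called higher compare with 3.31% of 8953 genes called in either direction and 1.81% called higher.

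*Pim1* was called in the T cell classes too. In CD8 T cells it stood at 805, 617 and 328 CPM in Cish-positive and at 537, 408 and 241 CPM in Cish-negative cells (1.43-fold, log2 0.52 ± 0.060, SE, adjusted p = 3.39e-06), where 1.94% of all genes tested were called and 1.44% were called higher. In CD4 T cells it was at 1396, 1005 and 1609 against 1014, 747 and 952 CPM (1.44-fold, 0.52 ± 0.088, adjusted p = 0.000408), where 0.464% of genes were called and 0.348% were called higher. In Treg cells it was at 1516, 1210.2 and 1655 against 1275, 868 and 1181 CPM (1.31-fold, 0.39 ± 0.061, adjusted p = 0.00394), beside 0.727% of genes called and 0.325% called higher. Each library showed the direction in every class. The CD4 T call was not made by DESeq2 (adjusted p = 0.396) nor without KG 1, the Treg call was lost without KG 2, and the *Socs3* call in NK cells was lost without KG 1 or KG 2. Over all genes, DESeq2 called 0 of 3446 in CD4 T cells, and edgeR called 0 of 3373 there without KG 1. In Treg cells 9 of 5343 genes were called without KG 2. Without thinning, with gate and levels on all UMIs, none of the 4 genes was called in NK cells (1 had an unadjusted p below 0.05). *Socs3* changed sign there, at log2 -0.12, and 848 of all 11354 genes were called. In CD8 T cells 3 genes were called in that setting, *Socs2* and *Pim1* higher and *Socs3* lower. There 2977 of all 11631 genes were called, against 178 of 9191 with thinning.

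Several of the pathway lists also held genes called in Cish-positive NK cells. Of 17 immediate early and dissociation genes 6 were higher and 2 lower, the 2 being the heat shock genes *Hspa1a* and *Hspa1b*. Of 7 STAT genes 1 was higher, and of 9 interferon-induced genes 5 were higher, led by *Cxcl10* (1.42-fold), *Ifit1* (1.42-fold) and *Isg15* (1.31-fold). *Usp18* (1.32-fold) and the STAT5-induced cyclin gene *Ccnd2* (1.25-fold) were higher too. Immediate early and dissociation genes were also called in Cish-positive CD8 T cells (4 higher of 17, and 2 lower, again *Hspa1a* and *Hspa1b*). So were some in CD4 T cells (1 higher of 15) and Treg cells (4 higher of 15). The part of these genes in the *Pim1* calls was not tested. In CD8 T cells *Il2ra* was 1.63-fold and *Il12rb2*, a chain of the IL-12 receptor, 1.37-fold higher in Cish-positive cells. In Treg cells *Bcl2l1*, which encodes the survival protein BCL-XL, was 1.73-fold and *Cxcl10* 1.91-fold higher. *Nfkbia*, an immediate early gene that encodes the inhibitor of NF-kappaB, was higher in Cish-positive cells of all 4 classes (1.27-, 1.39-, 1.33- and 1.42-fold in NK, CD8 T, CD4 T and Treg cells), and the heat shock genes *Hspa1a* and *Hspa1b* were lower in NK (1.62- and 1.55-fold) and CD8 T cells (1.51- and 1.55-fold). Before thinning, Cish-positive NK cells had medians of 5735.5, 7908 and 14362 UMIs and Cish-negative NK cells 6272.5, 8311 and 18000. In Treg cells the medians were 8075.5, 8388 and 6558 against 10303, 10713.5 and 7513 UMIs. CD4 T cells had 5888, 6777 and 5530 against 5893, 7089.5 and 6145. CD8 T cells had 9030, 9773 and 13297 against 8840, 10684 and 14287.5, with the Cish-positive cells deeper in KG 1 only. The part of these differences in the results was not tested.

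The last comparison concerned time in the tumor, read from the Kaede color. There is 1 KR library, so no test can be made. A gene is described as past the fold rule when KR lay at least 1.5-fold above, or below, both KG libraries and by more than these differed from each other. Color and library preparation cannot be told apart here, and each count against both KG libraries stands beside the share of all genes past the same rule.

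In NK cells, *Pim1* and *Socs3* were past the rule and lower in KR, beside 21.6% of all genes. *Pim1* fell from 769.6 and 529 CPM in KG 1 and KG 2 to 212 CPM in KR, 3.63- and 2.49-fold lower, and *Socs3* from 184 and 151 CPM to 62.0 CPM, 2.97- and 2.43-fold lower. *Cish* was 1.45- and 1.28-fold lower, *Socs2* 1.58- and 1.49-fold lower and *Socs1* 1.71- and 1.08-fold lower, all short of the rule. The median gene of the NK class was itself lower in KR, by log2 -0.17 and -0.16 against KG 1 and KG 2. With levels rescaled by TMM factors the mean log2 ratios in NK cells were -1.35 for *Pim1*, -1.19 for *Socs3*, -0.38 for *Socs2* and -0.21 for *Cish*. The make-up of the NK class also changed with color: 315 and 491 Itga1 NK cells stood beside 426 and 306 Itgam NK cells in KG 1 and KG 2, against 1527 beside 76 in KR. Median depth was 6132, 8184 and 17234 UMIs per NK cell.

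Within the integrin groups the color differences of *Pim1* and *Socs3* were smaller than in all NK cells. Among Itga1 NK cells *Pim1* was 2.64- and 2.07-fold and *Socs3* 2.43- and 1.99-fold lower in KR, both past the rule, beside 11.6% of all genes. Among the Itgam NK cells no gene of the 5 was past it, beside 18.1% of all genes, with *Pim1* 1.79- and 1.40-fold and *Socs3* 1.68- and 1.42-fold lower in the 76 KR cells. *Socs2* was 1.24- and 2.08-fold lower there, on 6 UMIs in KR. In Ifit3-positive NK cells *Pim1* (3.93- and 2.81-fold) and *Socs3* (3.25- and 2.59-fold) were past it and lower, beside 17.6% of all genes. In Ifit3-negative NK cells the same 2 genes and *Socs2* (1.76- and 1.66-fold lower) were, beside 21.2%. Against KG 1 alone the rule is laxer, since only the 1.5-fold part of it applies. Counts under it were higher, at 4 of 5 genes in NK cells and in Ifit3-positive NK cells and 2 in Itgam NK cells. No share of all genes was computed for the laxer rule, so these counts cannot be set beside the shares above.

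In the T cell classes *Socs2* took the opposite direction. It was higher in KR by 1.52- and 1.67-fold in CD8 T cells, by 2.65- and 2.33-fold in CD4 T cells and by 2.25- and 2.19-fold in Treg cells. These ratios rest on 1602, 146 and 882 *Socs2* UMIs in KR. *Socs3* was lower in KR CD8 T cells (3.17- and 2.01-fold) and CD4 T cells (2.95- and 1.92-fold), and *Pim1* in KR CD8 T cells (2.40- and 1.75-fold) but within the range of the KG libraries or just above it in Treg and CD4 T cells. The counts past the rule were 3 of 5 in CD8 T cells (12.8% of all genes), 2 of 5 in CD4 T cells (10.9%) and 1 of 5 in Treg cells (6.51%). *Cish* was past it in no class, its log2 ratios lying between -0.54 and -0.36 in NK cells and between -0.040 and 0.46 in the T cell classes.

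**Figure D4:**
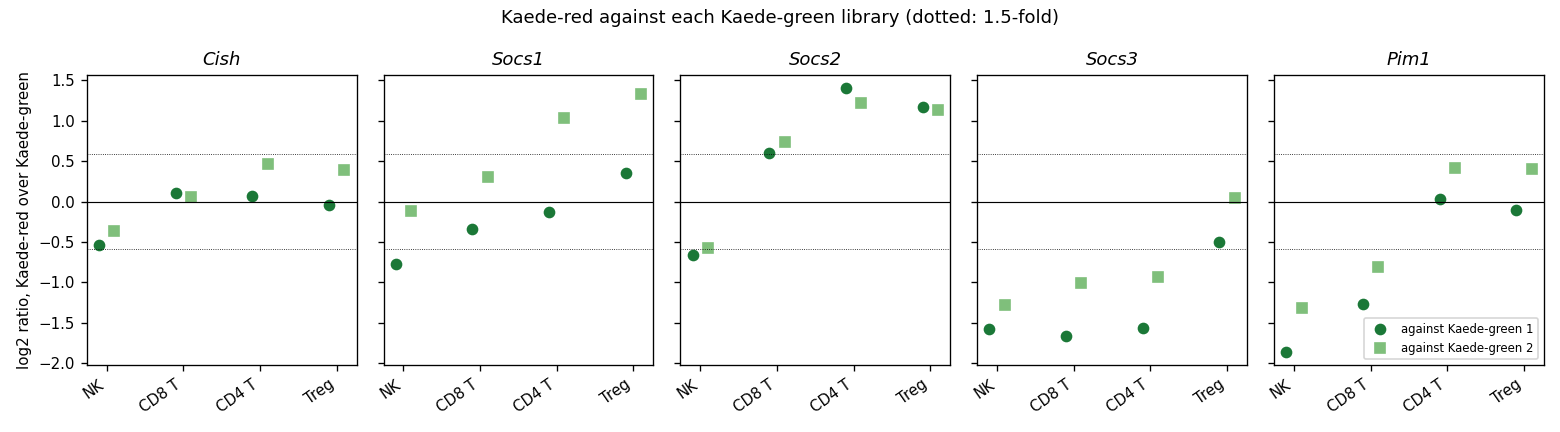
Log2 ratio of KR to each KG library for the 5 genes in the 4 cell classes, with dotted lines at a 1.5-fold difference. *Pim1* and *Socs3* lie at -1.86 to -1.28 in NK cells, and *Socs2* lies above 0 in all T cell classes (0.60 to 1.40).

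Across 15 sums (Itgam NK, Itga1 NK, CD8 T, CD4 T and Treg cells in 3 libraries) the 5 genes did not move as 1 block. Log levels of *Cish* correlated with those of *Pim1* (Pearson r = 0.82) and *Socs1* (0.79), and those of *Socs2* and *Socs3* did not follow each other (-0.20). Of the 5114 genes compared, those most like *Pim1* were *Clec2d*, *Ly9*, *Ccnd2*, *Nfkbia* and *Ppp1r15a* (r = 0.98 to 0.95), and those most like *Socs3* were *Tle4*, *Mbnl1*, *Ripor2*, *Rasa3* and *Slc38a2* (0.98 to 0.95). *Socs2* was closest to *Leprotl1*, *Zbtb38*, *Wnk1*, *Eea1* and *Cd2* (0.98 to 0.96). The closest genes were less alike for *Cish* (*Ccndbp1*, *Cnppd1*, *Rbm42*, *Tubgcp4* and *Tmem234*, 0.90 to 0.89) and *Socs1* (*H2-Q4*, *Sertad1*, *Cnppd1*, *Tsc22d3* and *Pink1*, 0.85 to 0.81). These are correlations over sums that share libraries and depth, given as a description.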

How the data were processed

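The deposited files hold UMI counts per gene and cell barcode (Chromium 3′ v3 libraries, genome mm10), made by the authors with Cell Ranger; the submitters' processing notes give version 6.1.2 and the matrix headers 6.0.1. Following the study's limits, barcodes needed 1000 to 6000 detected genes and a mitochondrial share below 7.5% (31943 of 34781 passed), and their counts were summed per class and library. No doublets were removed in the main analysis; an alternative left out the 6% of cells with the highest Scrublet scores (scanpy 1.11.5; 600, 665 and 652 cells). Sums were tested in R 4.3.3 with edgeR 4.0.16 (TMM, filterByExpr, quasi-likelihood test, Benjamini-Hochberg over all genes tested, threshold 0.05), with the library as a block because groups cut from the same library are paired by construction. Genes used in the gates were left out of the tests. SE is the log2 difference divided by the square root of F, and intervals are 1.96 SE. Poisson intervals cover counting error only. With the library as a block, the p-values rest on how differences within libraries varied over the 3 libraries, not on the spread between libraries. edgeR moderates that variation over all genes, so a very small p does not measure the spread of 1 gene alone. For Cish-positive cells all cells were thinned to 2000 UMIs, leaving out shallower ones. In the other comparisons the thinned alternative kept the gates on all UMIs. For Kaede color, 0.5 was added to each count and genes with at least 20 UMIs over the 3 sums form the background. Likeness used Pearson's r of log2 CPM among genes with a mean of at least 20 CPM. The scripts were tested on simulated data. Alternatives were DESeq2 1.42.0, no filter, no block, each library left out, other cell sets, thinning and other gates.

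Genes named beside the 5 are the called genes of the pathway lists with the largest log2 difference, up to 8 per comparison, every gene of a list of at most 4, and the 5 genes most like each of the 5. Counts of markers use lists of their own. The 5 genes, the lists and the tests were chosen with earlier results of these data known.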

Additional observations from a re-analysis of the deposited data

Results flagged for a closer look

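For 4 of the 5 genes the Kaede-red library moved one way against both Kaede-green libraries in one cell class and the opposite way in another. Only the signs were asked for, with no least size, and *Cish* counts at 1.07- and 1.04-fold higher in CD8 T cells. No share of all genes was computed for this rule, so the count says nothing particular about the 5 genes. The values below are differences between the mean log2 ratios of Kaede-red to Kaede-green of the 2 classes. None of these differences was tested, since there is 1 Kaede-red library, and groups of 3 libraries are too small for a search for outlying samples.

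*Socs2*, the growth hormone signaling brake, differed most. Its mean log2 ratio was -0.62 in NK cells, 0.67 in CD8 T cells, 1.31 in CD4 T cells and 1.15 in Treg cells, so the T cell classes lay 1.29 (CD8 T), 1.93 (CD4 T) and 1.77 (Treg) above NK cells. *Pim1* was at -1.59 in NK cells, -1.04 in CD8 T cells and 0.23 in CD4 T cells (0.2250 before rounding), a difference of 1.81 between CD4 T and NK cells and of 1.26 between CD4 T and CD8 T cells. *Socs1* was at -0.44 in NK cells and 0.84 in Treg cells, a difference of 1.29. *Cish* was at -0.45 in NK cells, 0.079 in CD8 T cells and 0.27 in CD4 T cells, differences of 0.53 and 0.71 (0.7150 before rounding). The median gene of the NK class was itself at -0.17 and -0.16 against the Kaede-green libraries.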

How the results depend on the processing

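Of 26 calls among 56 tests of the 5 genes, 7 were made under every alternative run, among them the *Socs2* differences of NK and CD8 T cells from Treg cells and the *Pim1* and *Socs3* differences between Itga1 and Itgam NK cells. Counts of called genes, or of genes past the fold rule, stayed within 1.5 times the reported count in 168 of 212 recomputations. They moved in 44. Of 1010 single values 869 were unchanged. For a test this means the same direction and call. For a Kaede color ratio it means a shift within the SD of the ratios to the 2 Kaede-green libraries. The causes were not tested. No library block (groups of the same library treated as unpaired) left 0 of the genes called between NK and CD8 T cells, Treg and CD4 T cells, Ifit3-positive and Ifit3-negative NK cells, and Cish-positive and Cish-negative cells of all 4 classes, where 0 or 1 gene had an unadjusted p below 0.05 in edgeR. Over all genes this setting called 0 of 11421 for Ifit3-positive NK cells. For Cish-positive cells it called 0 of 8953 in NK, 0 of 9191 in CD8 T, 1 of 3446 in CD4 T and 0 of 5230 in Treg cells. The counts of 0 in these comparisons therefore say nothing particular about the 5 genes. Between NK and CD8 T cells it called 2071 of 12487 genes, and between Treg and CD4 T cells 1198. Of the 5 genes it left 1 between NK and CD4 T cells, beside 3293 of all 12487. It left 1 between CD4 T and CD8 T cells, beside 1110 of 12487. Between Itga1 and Itgam NK cells it left 2, beside 2359 of 9499. It turned *Socs1* between NK and Treg cells to log2 -0.033. DESeq2 called 0 genes in Cish-positive CD4 T cells (1 unadjusted), where it called 0 of all 3446 genes. Without the filter on low counts 2 genes were called between NK and CD8 T cells, beside 3693 of all 21644. Keeping cells of 2 gates in both gave 2 between NK and CD8 T cells and 1 between NK and CD4 T cells. Over all 12666 genes that setting called 3711 and 3824 in these 2 contrasts. Between CD4 T and CD8 T cells it gave 0 (3 unadjusted), beside 527 of all 12666 genes called. Between NK and CD4 T cells 1 gene, *Socs2*, was called, and *Pim1* was not, without high Scrublet scores, without cells with myeloid or B cell UMIs, without cycling cells, with thinned cells and in NK cells without *Cd3e*, *Il7r* or *Rora* UMIs. Over all genes these settings called 4142, 4029, 3877, 2471 and 3962 in that order, against 4024 reported. Without cycling cells 2 were called between Treg and CD4 T cells, beside 1379 of all 11833 genes. Between Itga1 and Itgam NK cells 2 were called in that setting, beside 2001 of 8709. Thinning also left 2 there, beside 1050 of 6120. With all UMIs in place of thinned ones, Cish-positive cells gave 0 genes in NK cells, 3 in CD8 T cells and 0 in CD4 T cells (1 unadjusted in each of the classes at 0). Over all genes that setting called 848 of 11354 in NK, 2977 of 11631 in CD8 T and 81 of 7869 in CD4 T cells.

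Leaving out each library in turn gave 0 to 3 called genes between NK and CD8 T, CD4 T and CD8 T, and Treg and CD4 T cells, 1 to 2 between NK and CD4 T cells, 2 to 5 between Itga1 and Itgam NK cells and 0 to 1 in Cish-positive CD4 T and Treg cells. Over all genes these settings called 1500 to 4737, 370 to 3321 and 309 to 4051 in the first 3 of these contrasts. They called 1806 to 4242 between NK and CD4 T cells and 1795 to 3731 between Itga1 and Itgam NK cells. In Cish-positive CD4 T and Treg cells they called 0 to 18 and 9 to 57. Genes past the fold rule numbered 2 to 4 in NK cells and Ifit3-positive NK cells, and 1 to 2 in Treg cells and Itgam NK cells. With 1 Kaede-green library only the 1.5-fold part of the rule applies, and no share of all genes was computed for it.

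The values that changed sign were not called in the reported tests, except *Socs3* in Cish-positive NK cells, at log2 -0.12 with all UMIs. With 1 library left out, *Cish* ran from -0.062 to 0.15 (NK against CD8 T), -0.13 to 0.12 (NK against Treg) and -0.021 to 0.17 (Treg against CD8 T), and *Socs1* from -0.41 to 0.029 (NK against CD4 T), -0.24 to 0.38 (NK against Treg) and -0.25 to 0.26 (Treg against CD8 T). *Socs3* ran from -0.19 to 0.019 (NK against CD4 T) and from -0.071 to 0.20 (Cish-positive CD4 T cells), where *Socs2* ran from -0.20 to 0.40. With thinned cells *Cish* turned to 0.026 (NK against CD4 T) and 0.18 (Treg against CD4 T), *Socs1* to -0.16 (NK against Treg) and 0.0076 (Treg against CD4 T), and *Socs3* to 0.0155 (NK against CD4 T). Without cycling cells *Cish* turned to 0.045 (Treg against CD4 T), *Socs1* to -0.0040 (NK against CD8 T) and -0.19 (NK against Treg), and *Socs2* to -0.0385 in Cish-positive Treg cells. *Cish* between NK and Treg cells turned to 0.016 without the filter, 0.0039 without high Scrublet scores and 0.013 without myeloid or B cell UMIs. Without the filter *Socs3* turned to -0.062 in Cish-positive CD4 T cells, and with cells of 2 gates in both to 0.22 between NK and CD4 T cells. With all UMIs *Socs1* turned to -0.076 in Cish-positive CD8 T cells, *Socs3* to -0.12 in CD4 T cells and *Socs2* to -0.37 in Treg cells.

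Over all genes the counts called moved by more than 1.5 times in at least 1 alternative of each comparison. They ran from 1500 to 4737 between NK and CD8 T cells (3212 reported), 1806 to 4242 between NK and CD4 T cells (4024), 2773 to 6133 between NK and Treg cells (5096), 370 to 3321 between CD4 T and CD8 T cells (2294), 1488 to 4214 between Treg and CD8 T cells (3331), 309 to 4051 between Treg and CD4 T cells (2151) and 1050 to 3731 between Itga1 and Itgam NK cells (3398). They ran from 0 to 1439 for Ifit3-positive NK cells (881), and for Cish-positive cells from 0 to 848 in NK (296), 0 to 2977 in CD8 T (178), 0 to 81 in CD4 T (16) and 0 to 129 in Treg cells (38). Depth limits *Socs2* most, with 87 UMIs in all Itgam NK cells.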

Other observations

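The 120 NK cells with UMIs of both integrins belong to the NK class but were left out of the main comparison of Itga1 with Itgam NK cells. *Pim1*, the STAT-induced kinase gene, was at 1020.2, 504 and 226 CPM in these 120 cells (264, 260 and 137 UMIs). The values are for the Kaede-green replicates 1 and 2 and for Kaede-red. *Socs3* was at 216, 159 and 64.3 CPM and *Cish* at 185, 124 and 139 CPM.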
